A study of Mus musculus with 17 samples.

Results

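The genes described here encode 10 proteins of the thin filament of striated muscle: the troponin genes Tnnt2, Tnni3, Tnni1, Tnnc1 and Tnnt3, the actin genes Actc1 and Acta1, and the tropomyosin genes Tpm1, Tpm2 and Tpm4. They were chosen by name, as the rows whose identifiers map to these symbols, and all 10 have a row of their own among the 31647 features. Transcripts were counted in 17 hearts of male C57BL/6 J wild-type mice aged 8 to 11 weeks. In 9 mice the left anterior descending coronary artery was ligated permanently to induce myocardial infarction (MI), and the infarct zone (IZ) was dissected from the left ventricle 5 days later. The other 8 mice had sham surgery without ligation and gave left ventricular tissue at the same time. The IZ was taken as whole tissue, so each library holds RNA of every cell type in it.

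Thin filaments are actin polymers with tropomyosin lying along them, and the troponin complex sits on tropomyosin at regular intervals. Troponin C binds calcium, troponin I holds the filament inhibited at rest and troponin T anchors the complex to tropomyosin. Adult mouse cardiomyocytes use the cardiac forms encoded by Tnnt2, Tnni3, Tnnc1, Actc1 and Tpm1. Tnni1 encodes the slow skeletal troponin I of the fetal heart, Tnnt3 the fast skeletal troponin T and Acta1 the skeletal alpha-actin, which is also made in the heart and is known to rise under load. Tpm2 encodes the tropomyosin of slow skeletal and smooth muscle, and Tpm4 a tropomyosin found mainly in cells other than striated muscle.

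Promoters of 9 of the 10 genes were found in the RefSeq table of GRCm38.p6, and Tnnt3 had no entry. A pair of actin genes and a pair of troponin genes are shown, the first because the ratio of their transcripts did not differ detectably after MI, the second because it did. Each sequence is the 250 bases before the RefSeq start of the gene, read 5′ to 3′ on the strand of the gene. Capitals mark CArG boxes, the element bound by serum response factor, and M-CAT elements (CATTCC or its reverse complement GGAATG, the element bound by TEAD factors). The regions are chr2:114052876-114053125 on the minus strand for Actc1, chr8:123894776-123895025 on the minus strand for Acta1, chr1:135836084-135836333 on the plus strand for Tnnt2 and chr7:4522529-4522778 on the minus strand for Tnni3.
Actc1: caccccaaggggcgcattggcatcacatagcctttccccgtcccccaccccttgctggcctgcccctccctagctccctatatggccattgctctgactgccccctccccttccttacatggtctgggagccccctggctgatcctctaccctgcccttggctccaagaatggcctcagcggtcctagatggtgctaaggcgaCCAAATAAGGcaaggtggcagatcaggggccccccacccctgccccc
Acta1: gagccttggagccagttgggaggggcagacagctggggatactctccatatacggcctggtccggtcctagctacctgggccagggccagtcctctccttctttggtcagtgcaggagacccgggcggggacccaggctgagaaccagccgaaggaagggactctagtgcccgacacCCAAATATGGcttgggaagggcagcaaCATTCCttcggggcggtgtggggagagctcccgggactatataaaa
Tnnt2: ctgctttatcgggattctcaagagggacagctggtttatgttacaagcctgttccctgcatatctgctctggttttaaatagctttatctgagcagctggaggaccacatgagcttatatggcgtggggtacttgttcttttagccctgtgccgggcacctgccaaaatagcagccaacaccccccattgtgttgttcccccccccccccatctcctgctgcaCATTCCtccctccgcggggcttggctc
Tnni3: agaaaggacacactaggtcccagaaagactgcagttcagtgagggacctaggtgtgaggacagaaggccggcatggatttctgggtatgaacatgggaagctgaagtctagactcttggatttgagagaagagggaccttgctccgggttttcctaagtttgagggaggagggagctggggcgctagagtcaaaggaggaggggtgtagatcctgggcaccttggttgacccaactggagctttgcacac
Both actin promoters held a CArG box, at -47 to -38 from the start in Actc1 and at -73 to -64 in Acta1, whereas 1.40% of 27025 promoters of this length did. None of the other 7 promoters held one. An M-CAT element, searched on both strands, was present in Tnnt2 at -27 to -22, in Acta1 at -46 to -41, in Tnnc1 at -58 to -53 and in Tpm1 at -56 to -51, which is 4 of 9 promoters beside 12.6% of all. The MEF2 site, searched by its consensus on both strands, was found in 0 of 9 and in 3.01% of all promoters. These are matches of letters in a short window and not measurements of binding. Some windows, such as those of Actc1 and Tnni3, lie inside the gene spans given further on. Motif positions and absences therefore depend on the RefSeq start used.

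Sequencing was by massive analysis of cDNA ends (MACE), which reads 3′ ends of polyadenylated transcripts and counts each molecule once through its identifier. Total counts per library ran from 1237675 to 4738307. Levels are given in CPM, counts per 1000000 of a library size scaled by the trimmed mean of M values (TMM, factors from 0.616 to 1.53). Genes were compared by the quasi-likelihood F-test of edgeR, with p-values adjusted by Benjamini and Hochberg over the 12301 features with enough counts and a threshold of 0.05. The fit called 8544 features, or 69.5%, with 36.3% higher and 33.1% lower in the IZ, so a call alone does not set a gene apart in this comparison. The labels give no batch, and same-numbered sham and IZ libraries are different mice. In these bulk samples, fewer cells of a type and less RNA per cell cannot be told apart.

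Of the 10 thin filament genes, 9 had enough counts to be tested. The 6 genes Tnnt2, Tnni3, Tnnc1, Actc1, Acta1 and Tpm1 fell, and the 3 genes Tnnt3, Tpm2 and Tpm4 rose, beside 33.1% and 36.3% of all tested features. Tnnt3 had enough counts only through the IZ libraries, so its place among the tested genes already depends on its rise. Groups did not overlap for 5 of the genes that fell and for all 3 that rose, where 16.5% and 16.6% of all tested features had no overlap in these directions. Together the 10 genes took 2.59 ± 0.161% of a sham library and 0.910 ± 0.515% of an IZ library (SD, n = 8 and 9). The difference in means was -1.68 percentage points (exact two-sided permutation p = 8.23e-05). The share was 2.22% in IZ replicate 1 and between 0.549% and 0.979% in the other IZ libraries.

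**Figure D1:**
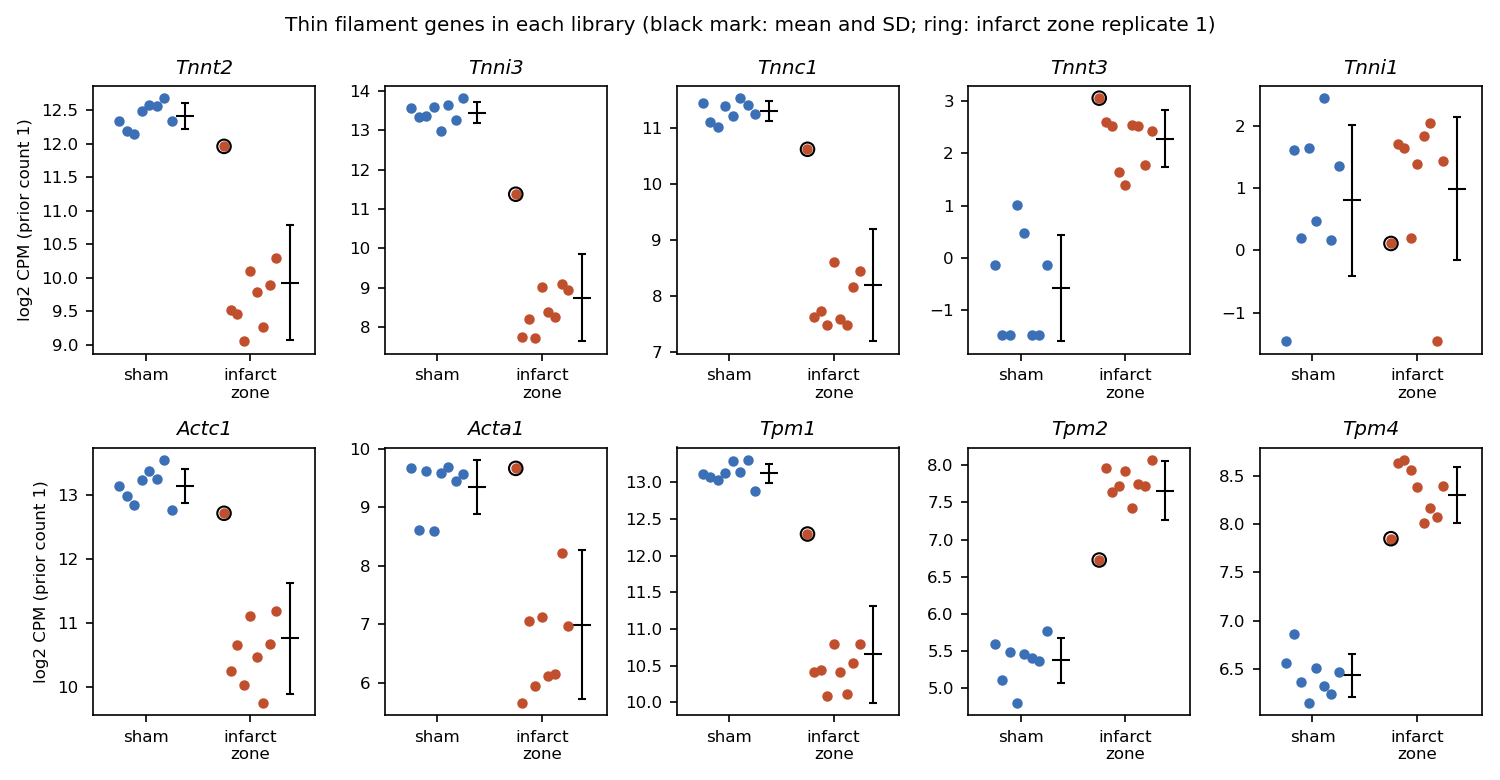
Level of each of the 10 genes in each library, as log2 CPM with a prior count of 1, for 8 sham (blue) and 9 IZ (red) libraries. The black marks are means with SD and the ring is IZ replicate 1, which lies nearer to sham than the other IZ libraries for Tnnt2, Tnni3, Tnnc1, Actc1, Acta1 and Tpm1.

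Cardiac troponin I fell the most of the 9 tested genes. Tnni3, which encodes the inhibitory subunit of the adult heart, lies at chr7:4518305-4524229 (mm10, minus strand). Its level in sham was 8064 CPM at the lowest, 11369.6 at the median and 14452 at the highest. In the IZ the lowest was 211, the median 333 and the highest 2662 CPM, the last being replicate 1. All 9 IZ libraries were below all sham libraries, and the 8 other than replicate 1 reached at most 547 CPM. The mean was 11339 ± 2017 CPM in sham (SD, n = 8) and 620 ± 776 in the IZ (SD, n = 9), a log2 fold change of -4.19 ± 0.46 (SE) with an adjusted p of 3.30e-08 by edgeR's quasi-likelihood test. Without IZ replicate 1 the IZ mean was 364 ± 135 CPM and the log2 fold change -5.00. Tnni3 overlaps Dnaaf3 on the same strand, and Dnaaf3 itself had 14 to 52 counts per sham library and 0 to 15 per IZ library.

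Cardiac troponin T fell less than troponin I. Tnnt2 (chr1:135836354-135852260, plus strand), the subunit that binds tropomyosin, ranged in sham from 4529 over a median of 5458 to 6554 CPM. In the IZ it ranged from 531 over a median of 887 to 3983 CPM. No IZ library reached the lowest sham library, and replicate 1 was the nearest to it. The means were 5499 ± 730 and 1198 ± 1070 CPM (SD, n = 8 and 9), with a log2 fold change of -2.20 ± 0.33 (edgeR quasi-likelihood, adjusted p = 3.07e-06) that became -2.73 without IZ replicate 1.

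Tnnc1 (chr14:31208312-31211729, plus strand) encodes the calcium-binding troponin C of cardiac and slow muscle. Sham libraries held 2083 to 2982 CPM with a median of 2582, and IZ libraries 178 to 1581 CPM with a median of 213. The groups did not overlap, and replicate 1 was again the highest of the IZ. The log2 fold change was -2.69 ± 0.38 (edgeR quasi-likelihood, adjusted p = 1.45e-06) and -3.40 without that library. The gene overlaps Nisch on the opposite strand. Nisch had 276 to 1045 raw counts per IZ library and 156 to 342 per sham library.

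The skeletal troponin genes Tnni1 and Tnnt3 were near the limit of detection in both groups. Tnnt1, the slow skeletal troponin T, was not, with 32 to 76 counts per sham library and 3 to 34 per IZ library. Its log2 fold change was -2.54 ± 0.23 (edgeR quasi-likelihood, adjusted p = 1.22e-09). Tnni1 (chr1:135779434-135810989, plus strand), the troponin I of the fetal heart and of slow muscle, had 0 to 7 counts per sham library, 25 in all, and 0 to 21 per IZ library, 71 in all. This corresponds to 1.92 ± 1.63 CPM in sham and 2.08 ± 1.29 CPM in the IZ (SD, n = 8 and 9), and the groups overlapped. Relative to the scaled library sizes, the summed counts gave a ratio of 1.23 of IZ to sham, with an exact 95% interval for counting error of 0.773 to 2.03. Tnni1 did not have enough counts for the main fit. When no filter was applied, its log2 fold change was 0.27 ± 0.52 (edgeR quasi-likelihood, adjusted p = 0.687). No change was detectable at this depth, and the counting interval leaves out variation between mice, so it does not bound the change.

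Tnnt3 (chr7:142498836-142516009, plus strand), the troponin T of fast skeletal muscle, had 0 to 3 counts per sham library, 7 in all, and 4 to 41 per IZ library, 160 in all. All 9 IZ libraries lay above all sham libraries in CPM, at 0.472 ± 0.611 in sham and 4.75 ± 1.77 in the IZ (SD, n = 8 and 9). The summed counts gave a ratio of 9.93 of IZ to sham, with an exact 95% counting interval of 4.71 to 25.1. The fitted log2 fold change was 3.18 ± 0.47 (edgeR quasi-likelihood, adjusted p = 2.82e-06), in a fit that Tnnt3 entered only through its IZ counts. With no filter it was 3.23 ± 0.52 (edgeR quasi-likelihood, adjusted p = 1.32e-06). That rise was of a few molecules per library: Tnnt3 made up 0.511% of the counts of the troponin T genes in the IZ and 0.00829% in sham. Prr33, which overlaps Tnnt3 on the opposite strand, had 11 to 38 raw counts per sham library and 0 to 10 per IZ library.

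Of 11 markers of fast skeletal muscle, 3 had enough counts to be tested, 0 passed as higher and 2 fell. Casq1, the calsequestrin of fast muscle, had a log2 fold change of -3.25 ± 0.40 (edgeR quasi-likelihood, adjusted p = 1.45e-07). Tnni2, the fast skeletal troponin I, differed by 1.02 ± 0.46 without passing the threshold (edgeR quasi-likelihood, adjusted p = 0.0530), and it passed in 7 of 21 alternative settings. The 11 markers summed to 32.5 to 78.4 CPM in sham and 10.2 to 44.2 CPM in the IZ. Most of the sham sum came from Casq1 and Mybpc2, the 2 that fell, with means of 22.9 and 19.5 CPM. Their IZ means were 2.54 and 7.66 CPM, while Tnni2 had 2.80 CPM in sham and 5.96 in the IZ. Myh4 and Tnnc2 had 0 counts in every IZ library, but Myh4 had 0 in every sham library too. Tnnc2 had 11 counts in all of sham. The part of skeletal muscle RNA in the Tnnt3 result was not tested beyond these values.

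Both sarcomeric actins fell. Actc1 (chr2:114047282-114053548, minus strand), the main actin of the cardiac sarcomere, ranged in sham from 6960 over a median of 9393 to 12076 CPM and in the IZ from 859 over 1606 to 6742 CPM. The highest IZ library, replicate 1, was just under the lowest sham library, and the next highest had 2337 CPM. The log2 fold change of Actc1 was -2.12 ± 0.34 (edgeR quasi-likelihood, adjusted p = 7.05e-06) and -2.62 without IZ replicate 1.

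Acta1 (chr8:123891769-123894751, minus strand) was the only one of the 6 genes that fell whose groups overlapped. In sham it ranged from 386 over a median of 758 to 825 CPM, with replicates 2 and 4 at 391 and 386 CPM and the other 6 libraries at 696 CPM or more. In the IZ it ranged from 50.3 over a median of 126 to 809 CPM. Replicate 1 lay within the sham range, replicate 8 was the next highest at 296 CPM, and 8 of 9 IZ libraries were below all sham libraries. The log2 fold change was -1.80 ± 0.44 (edgeR quasi-likelihood, adjusted p = 9.76e-04) and -2.57 without replicate 1. With libraries scaled by total counts alone it was -0.89 (edgeR quasi-likelihood, adjusted p = 0.0256).

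Tropomyosin genes moved in both directions. Tpm1 (chr9:67022590-67049406, minus strand), whose striated muscle form is the main cardiac tropomyosin, ranged in sham from 7583 over a median of 8869 to 10149 CPM and in the IZ from 1083 over 1390.4 to 5027 CPM. The groups did not overlap, and replicate 1 stood well above the next highest IZ library, which had 1785 CPM. The log2 fold change was -2.29 ± 0.28 (edgeR quasi-likelihood, adjusted p = 1.52e-07) and -2.69 without IZ replicate 1. Tpm1 also encodes forms of non-muscle cells by alternative splicing, and gene counts of 3′ ends do not separate them.

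Tpm2 (chr4:43514711-43523765, minus strand) had 27.6 to 54.5 CPM in sham with a median of 42.9, and 106 to 269 CPM in the IZ with a median of 211. Every IZ library was above every sham library, and replicate 1 was the lowest of the IZ. The log2 fold change was 2.31 ± 0.17 (edgeR quasi-likelihood, adjusted p = 4.47e-11).

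Tpm4 (chr8:72134975-72153142, plus strand) had 70.7 to 116 CPM in sham with a median of 85.2, and 230.1 to 406 CPM in the IZ with a median of 333. The groups did not overlap, and replicate 1 was the lowest IZ library here too. The log2 fold change was 1.88 ± 0.14 (edgeR quasi-likelihood, adjusted p = 7.04e-11). Leaving out replicate 1 moved the log2 fold changes of Tpm2 and Tpm4 to 2.36 and 1.90. Tpm4 overlaps Gm26586 and Gm16091 on the opposite strand. Gm26586 had 0 counts per sham library and 0 to 1 per IZ library, and Gm16091 had 0 in both groups.

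**Figure D2:**
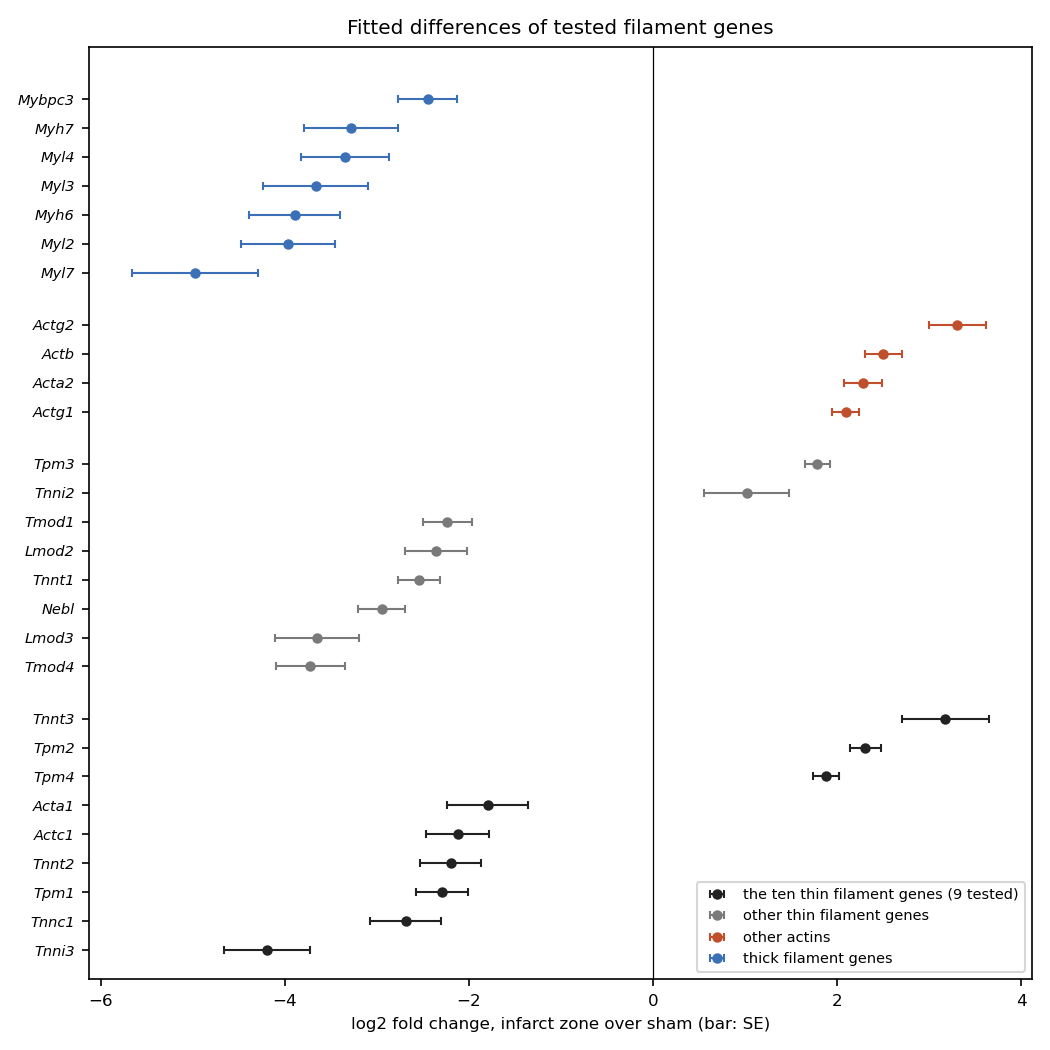
Fitted log2 fold change of IZ over sham with its SE for the tested filament genes, grouped as the 10 thin filament genes (9 tested), other thin filament genes, other actins and thick filament genes. Tnni3 lies at -4.19 and Acta1 at -1.80 among the genes that fell, and Tpm4 at 1.88 and Tnnt3 at 3.18 among those that rose.

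The scale of the libraries bears on these levels. With total counts alone, the median difference of all tested features moved on the log2 scale from 0.05 to 1.13, with 9176 features called higher and 1534 lower, in place of 4470 and 4074. On that scale the log2 fold changes were -1.24 for Tnnt2, -3.30 for Tnni3, -1.77 for Tnnc1, -1.15 for Actc1 and -1.31 for Tpm1. All 9 tested genes kept their direction and their call under it. Ratios of counts of 2 genes within a library do not depend on this scale, and 10 were compared, with a pseudocount of 0.5 and exact two-sided permutation over all 24310 assignments of the libraries to groups of these sizes. The smallest p that can be reached is 4.11e-05. All p-values of ratios are adjusted over the 10.

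The ratio of skeletal to cardiac alpha-actin did not differ detectably. Sham libraries held 3.98 to 10.8 counts of Acta1 per 100 counts of Actc1 with a median of 7.81, and IZ libraries 4.13 to 18.1 with a median of 6.33. The ranges overlapped, with only IZ replicates 1 (12.0) and 8 (18.1) above all sham libraries. The difference in mean log2 ratio was 0.04 with an exact 95% interval of -0.59 to 0.67, which in folds is 0.663 to 1.60 (exact permutation, adjusted p = 0.906). The sign of this difference is not stable: it was -0.30 between group medians and -0.13 without IZ replicate 8.

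The ratio of Tnni1 to Tnni3 rose, while Tnni3 fell and the Tnni1 level did not pass its test. There were 0.00223 to 0.0426 counts of Tnni1 per 100 of Tnni3 in sham, with the pseudocount included, and 0.0337 to 1.37 in the IZ. Of the IZ libraries 8 of 9 were above all sham libraries with the pseudocount, and replicate 1 was within their range. One of the 8, replicate 8, had 0 counts of Tnni1 and was above them (0.0468) only through the pseudocount, so that 7 IZ libraries were above all sham libraries in the share of Tnni1 among troponin I counts without it. Leaving out replicate 8 gave a log2 difference of 5.19 (exact permutation, adjusted p = 0.000345). The geometric mean of the ratio rose 27.9-fold (log2 difference 4.80, exact 95% interval 3.01 to 6.56, exact permutation, adjusted p = 0.000320). Tnni1 nonetheless stayed a small fraction: among troponin I counts Tnni3 made up 99.96% in sham and 97.7 ± 1.28% in the IZ, Tnni1 0.626 ± 0.481% and Tnni2 1.68 ± 1.07% in the IZ (SD, n = 9).

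The ratio of Tnnt3 to Tnnt2 also rose in 9 of 9 IZ libraries beyond all sham libraries, by 5.45 on the log2 scale (exact permutation, adjusted p = 8.23e-05). Its size depended on the pseudocount because of the few counts in sham: with a pseudocount of 5 the difference was 3.40. For Tnni1 to Tnni3 that pseudocount gave 4.35.

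Ratios of the tropomyosins rested on far more counts. Sham libraries held 0.313 to 0.722 counts of Tpm2 per 100 of Tpm1 (median 0.455), and IZ libraries 2.10 to 19.4 (median 14.3). The geometric mean of the ratio rose 26.8-fold (log2 difference 4.75, exact 95% interval 3.97 to 5.36, exact permutation, adjusted p = 0.000103). For Tpm4 the sham libraries held 0.742 to 1.35 counts per 100 of Tpm1 (median 0.948) and the IZ libraries 4.58 to 34.7 (median 18.9). The geometric mean of that ratio rose 20.1-fold (log2 difference 4.33, exact 95% interval 3.66 to 4.91, exact permutation, adjusted p = 0.000103). In both ratios all 9 IZ libraries lay above all sham libraries and replicate 1 was the lowest of them.

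**Figure D3:**
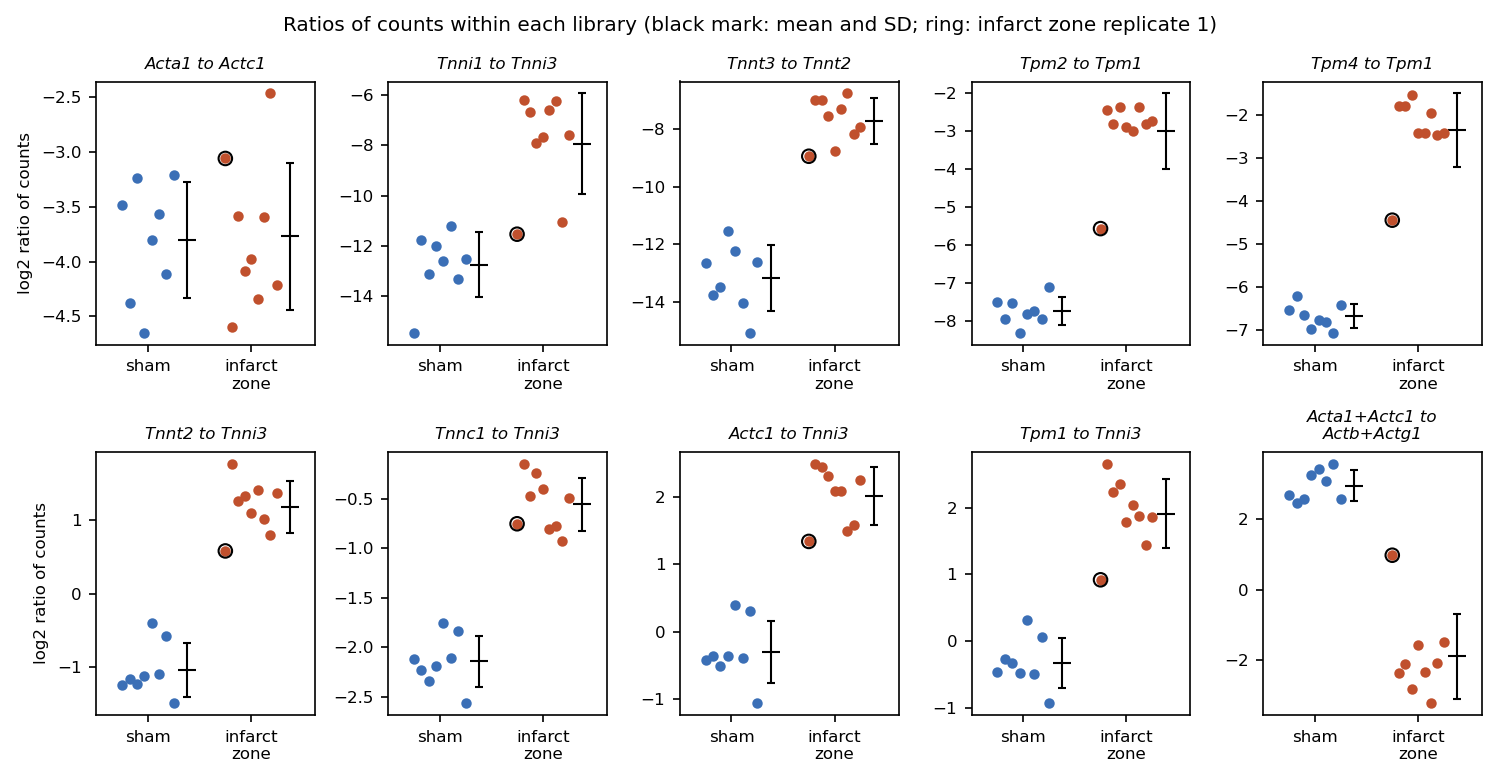
Log2 ratio of counts of 2 genes within each library for the 10 ratios compared, in 8 sham (blue) and 9 IZ (red) libraries, with means and SD as black marks and IZ replicate 1 ringed. Acta1 to Actc1 overlaps between the groups, Tnni1 to Tnni3 overlaps through replicate 1 (and replicate 8, with 0 counts of Tnni1, is above sham only through the pseudocount), and the other 8 ratios do not overlap.

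Subunits of the cardiac filament did not fall in proportion. Sham libraries held 35.8 to 76.1 counts of Tnnt2 per 100 of Tnni3 with a median of 45.4, whereas IZ libraries held 149.6 to 340.0 with a median of 239. The geometric mean of the Tnnt2 to Tnni3 ratio rose 4.64-fold (exact 95% interval 3.58 to 6.002, exact permutation, adjusted p = 8.23e-05). Against the same Tnni3 counts, the geometric mean ratio rose 3.003-fold for Tnnc1 (2.48 to 3.64), 4.95-fold for Actc1 (3.58 to 6.79) and 4.71-fold for Tpm1 (3.39 to 6.50). Each lay beyond all sham libraries in 9 of 9 IZ libraries (exact permutation, adjusted p = 8.23e-05 for each). These 4 ratios share the denominator and so are not independent of each other. Replicate 1, which kept the highest Tnni3 level, was still outside the sham range in all 4.

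The sarcomeric actins were also set against the cytoplasmic actins. The summed counts of Acta1 and Actc1 were 5.49 to 12.0 times those of Actb and Actg1 in sham (median 7.47) and 0.107 to 1.97 times in the IZ (median 0.233). The geometric mean of the ratio was 28.8-fold lower in the IZ (log2 difference -4.85, exact 95% interval -5.69 to -3.89, exact permutation, adjusted p = 0.000103). Replicate 1 was the IZ library with the highest ratio, at 1.97, and was below all sham libraries.

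Within the actin genes, the make-up of the counts changed from cardiac to cytoplasmic. Of the counts of 6 actin genes, Actc1 made up 81.1 ± 4.02% in sham and 20.2 ± 14.7% in the IZ, while Actb made up 10.8 ± 2.80% and 67.4 ± 14.7% (SD, n = 8 and 9). Acta1 went from 6.07% to 1.81% and Acta2, the smooth muscle alpha-actin, from 1.19% to 6.65%. In IZ replicate 1 the share of Actc1 was 57.5%, and in the other IZ libraries it was 8.35% to 22.8%. Among tropomyosin counts, Tpm1 made up 98.1 ± 0.325% in sham and 69.0 ± 9.54% in the IZ, Tpm4 0.966% and 14.4%, Tpm2 0.467% and 9.43%, and Tpm3 0.514% and 7.18%. Tpm1 held 91.6% in IZ replicate 1 and 58.3% to 71.0% in the others. Troponin T counts stayed almost wholly Tnnt2, at 99.4% and 99.0%. These are shares of counts, and 3′ ends of different genes may not be captured equally.

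**Figure D4:**
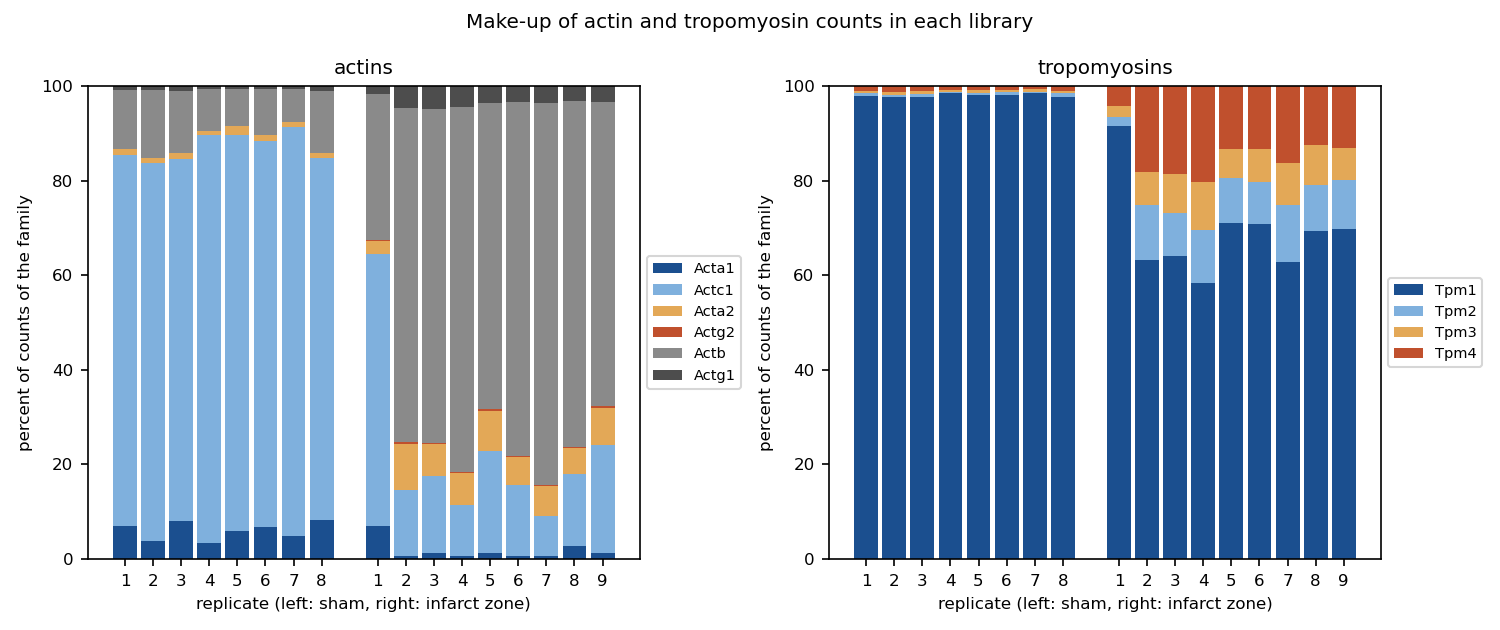
Share of the counts of 6 actin genes (left) and 4 tropomyosin genes (right) in each library, in percent of the family, with sham replicates at the left and IZ replicates at the right of each panel. Actc1 takes 76.4% to 86.3% of actin counts in sham and 8.35% to 57.5% in the IZ, and Tpm1 takes 97.7% to 98.5% of tropomyosin counts in sham and 58.3% to 91.6% in the IZ.

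Identity between paired genes, over global alignments with gaps counted, was lower in the 3′ untranslated regions than in the coding sequence. Gaps from unequal lengths lower it by themselves. These regions have 379 and 63 bases in Tnni1 and Tnni3, 1209 and 769 in Tpm2 and Tpm1, and 1318 and 769 in Tpm4 and Tpm1. For these pairs, and for Acta1 and Actc1 (240 and 184 bases), length alone set the lower value in advance. Acta1 and Actc1 were 86.3% identical over their coding sequence and 45.1% over their 3′ untranslated regions, Tpm2 and Tpm1 75.3% and 37.0%, Tpm4 and Tpm1 66.9% and 37.4%, Tnni1 and Tnni3 54.7% and 12.9%, and Tnnt3 and Tnnt2 56.6% and 50%. None of the 10 genes had a match of at least 95% identity over 100 bases to another gene in the last 500 bases of its transcript, and the nearest was Acta1 to Actb at 91.8% over 208 bases.

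To place the thin filament genes beside other cardiomyocyte genes, each was compared with the mean log2 CPM of 12 cardiomyocyte markers outside the filaments (of 13 listed, Slc8a1 had too few counts). These markers included calcium-handling and membrane genes, such as Ryr2 and Pln, but were not limited to them. Their mean was 8.95 ± 0.14 in sham and 5.62 ± 0.84 in the IZ (SD, n = 8 and 9), a difference of -3.33. It was 7.65 in IZ replicate 1 and 4.83 to 5.91 in the other IZ libraries. All 12 markers fell, the furthest being Hrc, a calcium-binding protein of the sarcoplasmic reticulum, at -4.63 ± 0.57 (edgeR quasi-likelihood, adjusted p = 1.51e-07). Markers of leukocytes and fibroblasts rose in the same libraries.

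Tnni3 fell further than this marker mean, Tnnt2, Actc1, Tpm1 and Acta1 fell less, and Tnnc1 did not differ detectably from it. Single markers differed widely in log2 fold change, with Popdc2 at -2.09 and Hrc at -4.63. Tnni3, Tnnt2, Actc1 and Tpm1 lay between these. The permutation p-values below do not measure this spread between markers. Relative to the markers, Tnni3 was lower by 1.37 on the log2 scale (difference -1.37, exact 95% interval -1.68 to -1.06, exact permutation, p adjusted over the 10 genes 0.000103). Tnnt2 was higher by 0.85 (0.69 to 1.01), Actc1 by 0.94 (0.67 to 1.20), Tpm1 by 0.87 (0.65 to 1.08) and Acta1 by 0.98 (0.39 to 1.57), with adjusted exact permutation p of 0.000103, 0.000118, 0.000103 and 0.00146. For Tnnc1 the difference of 0.22 did not pass the threshold (-0.01 to 0.44, exact permutation, adjusted p = 0.0551). Tpm2, Tpm4, Tnnt3 and Tnni1 were higher relative to the markers by 5.61, 5.195, 6.18 and 3.51 (exact permutation, adjusted p = 0.000118, 0.000118, 0.000103 and 0.000823). The marker mean itself differed by -3.33, so a gene of unchanged level also lies higher relative to it. For these genes the comparison is not a test of a rise, and the Tnni1 level itself did not differ detectably.

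Within the IZ, the 5 isoform ratios were related to the same marker mean over the 9 libraries, by exact permutation of the 362880 pairings and with p adjusted over the 5. Where the denominator follows the markers and the numerator does not, a negative relation is set in advance. Libraries with higher cardiomyocyte markers had a lower Tpm4 to Tpm1 ratio (Pearson r = -0.99, exact permutation, adjusted p = 0.000813, Spearman rho = -0.93, adjusted p = 0.00375). Without the 2 libraries farthest from the median of the markers, IZ replicates 1 and 4, r was -0.88 (exact permutation, adjusted p = 0.0342). For Tnnt3 to Tnnt2 r was -0.79 (exact permutation, adjusted p = 0.00275, rho = -0.82, adjusted p = 0.0179) and -0.93 without those 2 libraries (adjusted p = 0.0169, exact permutation). Without replicate 1 alone it was -0.76 (exact permutation, adjusted p = 0.0493), and rho of -0.74 was no longer past the threshold (exact permutation, adjusted p = 0.0764). For Tpm4 to Tpm1 the values without replicate 1 were r = -0.92 and rho = -0.90 (exact permutation, adjusted p = 0.0153 and 0.0228).

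Tpm2 to Tpm1 had r = -0.96 (exact permutation, adjusted p = 0.00275, rho = -0.85, adjusted p = 0.0152), which rested on the 2 farthest libraries, since without them r was -0.70 (exact permutation, adjusted p = 0.138). Without replicate 1 alone r was -0.79 (exact permutation, adjusted p = 0.0493) and rho -0.79 (exact permutation, adjusted p = 0.0698). Tnni1 to Tnni3 had r = -0.74 (exact permutation, adjusted p = 0.0254, rho = -0.60, adjusted p = 0.121) and r = -0.44 without replicate 1 (exact permutation, adjusted p = 0.376). Without the 2 farthest libraries its r of -0.61 did not pass (exact permutation, adjusted p = 0.166), while its rho of -0.93 did (exact permutation, adjusted p = 0.0169). Acta1 to Actc1 had r = 0.49 (exact permutation, adjusted p = 0.181, rho = 0.50, adjusted p = 0.178). The ratios and the markers come from the same libraries, and every denominator is itself a cardiomyocyte gene. The negative relations are therefore no test of a change of isoform within cardiomyocytes.

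**Figure D5:**
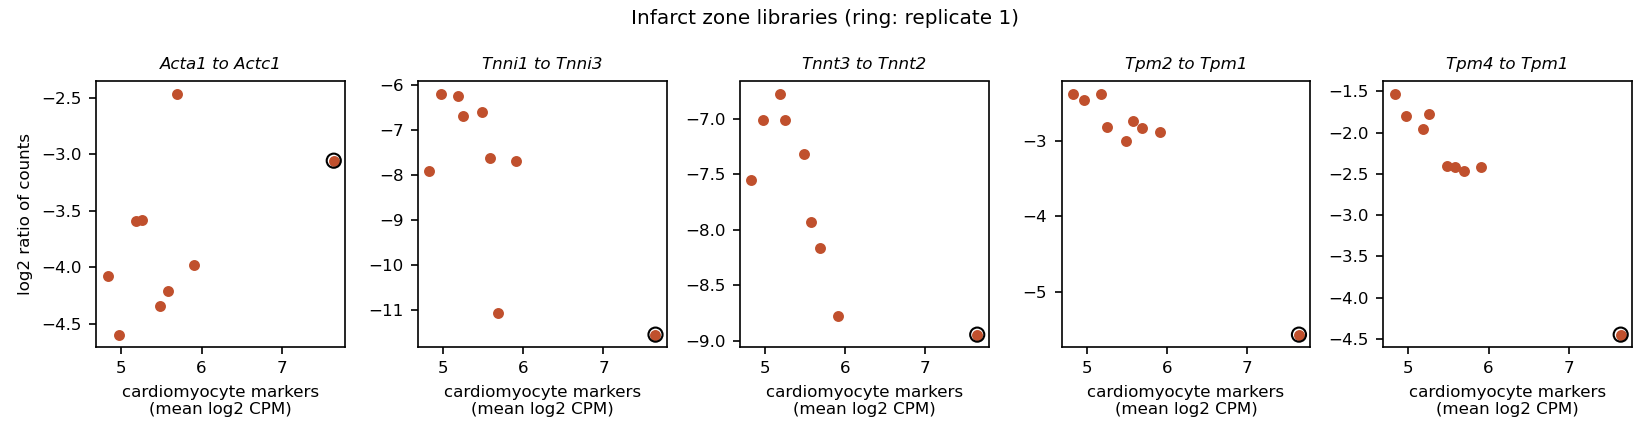
Log2 ratio of counts against the mean log2 CPM of 12 cardiomyocyte markers in the 9 IZ libraries, for 5 isoform ratios, with IZ replicate 1 ringed. Replicate 1 lies apart at 7.65 on the marker axis, the other 8 libraries lie between 4.83 and 5.91, and Tpm4 to Tpm1 declines within them as well.

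Other genes of the thin filament mostly moved with the cardiac forms. Of 10 listed, 8 were tested, 6 fell and 1 rose, with a median log2 fold change of -2.45 beside 0.05 over all tested features. The lowest was Tmod4, a tropomodulin that caps the pointed end of actin filaments, at -3.72 ± 0.38 (edgeR quasi-likelihood, adjusted p = 7.70e-09). The gene that rose was Tpm3, a tropomyosin of slow muscle and non-muscle cells, at 1.79 ± 0.13 (edgeR quasi-likelihood, adjusted p = 6.05e-11). The 3′ end of Tpm3 matches Tpm3-rs7 at 98.5% over 460 bases, so its counts are less certain.

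All 7 thick filament genes fell, with a median of -3.67, from Mybpc3, the cardiac myosin-binding protein C, at -2.45 ± 0.32 to Myl7, the atrial regulatory light chain, at -4.97 ± 0.68 (edgeR quasi-likelihood, adjusted p = 4.27e-07 and 8.57e-07). The Myl7 level varied widely in sham (80.9 ± 95.6 CPM, SD, n = 8). All 4 other actins rose, with a median of 2.39, from Actg1, the cytoplasmic gamma-actin, at 2.09 ± 0.15 to Actg2, the smooth muscle gamma-actin, at 3.31 ± 0.31 (edgeR quasi-likelihood, adjusted p = 3.46e-11 and 2.81e-09).

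Markers of other cell types give the cells among which these genes were measured. All 5 tested leukocyte markers rose, with Cd68, a lysosomal protein of macrophages, at 4.09 and Csf1r, the receptor of macrophage colony-stimulating factor, at 2.31, and their summed level was 264 to 409 CPM in sham and 1549 to 4425 in the IZ. Of 6 fibroblast markers 5 rose, with Col1a1, a chain of type I collagen, at 4.002 and Dcn, the proteoglycan decorin, at 0.04 without a call, and a summed level of 1290.4 to 2453 CPM in sham and 10149.6 to 15105 in the IZ. With libraries scaled by total counts alone, all 6 were called higher, Dcn among them. Of 8 smooth muscle and myofibroblast markers 4 rose and 3 fell, from Tagln (transgelin) at 2.79 to Smtn (smoothelin) at -1.41, with summed levels of 274 to 489 CPM and 506 to 1025 CPM. On total counts alone Smtn lost its call (log2 fold change -0.38, edgeR quasi-likelihood, adjusted p = 0.0559) and 5 markers of that list rose and 0 fell. Of 4 endothelial markers 1 fell, Kdr, a receptor of vascular endothelial growth factor, at -1.70, and Emcn (endomucin) differed by -0.04, with summed levels of 320.3 to 635 CPM and 234 to 427 CPM. On total counts alone 3 of the 4 endothelial markers rose, Emcn among them at 1.03. IZ replicate 1 was the lowest IZ library in the summed leukocyte, fibroblast and smooth muscle markers and the highest in the cardiomyocyte markers. The part of these cells in the rise of Tpm2, Tpm4 and the other actins was not tested.

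Genes whose libraries varied most like a thin filament gene were found by the Pearson correlation of log2 CPM, centred on the group means, over the 17 libraries and 9288 genes. They are given as descriptions, since these points share libraries and IZ replicate 1 stands apart. Among them for Tnni3 were Myh6, the alpha cardiac myosin heavy chain (r = 0.98), and Ndufb5, a subunit of respiratory complex I (r = 0.98), and without IZ replicate 1 the values were 0.94 and 0.91. The 3′ end of Myh6 matches Myh7 at 98.1% over 419 bases, so its counts are less certain. For Acta1 they were Lrtm1 (r = 0.93), Nqo1, a quinone reductase (0.92), and Pdlim5, a Z-disc protein (0.91), with 0.85, 0.81 and 0.79 without replicate 1. Among them for Tpm4 were Kat14 (0.90) and Actg1 (0.81). For Tnni1, whose counts were few, they were Rfxap (0.81), Stard13 (0.78) and Wbp1l (0.77).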

How the data were processed

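Total RNA of 8 sham left ventricles and 9 infarct zones was sequenced by the authors from 3′ ends with molecular identifiers that served to drop PCR copies. They trimmed the reads with Cutadapt, aligned them to mm10 (the submitters' processing notes name Bowtie2) and used HTSeq for counting. The deposited table holds unnormalised counts. The annotation release, the strand setting and the treatment of reads with several locations are not given in the sources used here, so genes that overlap others are marked. All 17 columns were used, 31521 of 31647 features matched the GRCm38 annotation, and 35 are merged groups of genes that were given no name. Groups and replicate numbers come from the sample titles.

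The members and gene lists were chosen with earlier results of these data known. All 10 members were named, with the highest and lowest tested gene of each list by log2 fold change, and for Tnni3, Acta1, Tnni1 and Tpm4 the 3 genes of at least 10 CPM with the most similar pattern. Myh4, Tnnc2, Mybpc2, Popdc2 and Tnnt1 were named besides this after their values were seen. The results of 3 genes that met the rule are not reported here.

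The test was edgeR 4.0.16 (R 4.3.3), the two-sided quasi-likelihood F-test without covariates, after filterByExpr (minimum 10 counts) and TMM scaling, with Benjamini-Hochberg adjustment over all 12301 tested features. The procedure was tested on simulated data. Log2 CPM used a prior count of 1. Ratios, differences from the marker mean and shares were compared by exact two-sided permutation, and exact 95% intervals are the shifts that this test does not reject. Per the study's methods the libraries come from separate mice. Their number, and for Tnni1 and Tnnt3 the depth, limits the precision, and counting intervals cover counting error only. Python 3.11.15 with SciPy 1.17.1 was used for these steps, BLAST 2.17.0 for transcript ends and Matplotlib 3.10.9 for plots. Alternatives were other scalings and filters, DESeq2 1.42.0, libraries thinned to equal totals, exclusion of mitochondrially encoded features, a replicate block, pseudocounts, medians and the omission of each library. The relations without IZ replicate 1 were added after seeing the data.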

Additional observations from a re-analysis of the deposited data

Results flagged for a closer look

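In a group of 9 libraries, a library is marked here when its gap to the nearest other exceeds 0.493 of the range of the group. Chance marks about 1 in 20 groups, and 44 groups of values were examined. The 11 marks were all of IZ replicate 1, and they are not independent because they share this library and its cardiomyocyte genes. Its log2 CPM was 11.96 for Tnnt2, 11.38 for Tnni3, 10.63 for Tnnc1, 12.72 for Actc1 and 12.30 for Tpm1, above the other 8 IZ libraries. It was 6.73 for Tpm2, below them. Its log2 ratio was -5.57 for Tpm2 to Tpm1, -4.45 for Tpm4 to Tpm1 and 0.98 for the sarcomeric to the cytoplasmic actins. The mean log2 CPM of the cardiomyocyte markers was 7.65 in this library against a group median of 5.49, and the 10 thin filament genes took 2.22% of its counts against a median of 0.749%. Every one of these 11 values lay between the other IZ libraries and sham.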

How the results depend on the processing

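Over all alternatives run, Tnnt2, Tnni3, Tnnc1, Actc1, Acta1 and Tpm1 were called lower and Tpm2 and Tpm4 higher in 26 of 26 settings. Tnnt3 had enough counts in 10 of them and was called in all 10. Apart from the fit with no filter, it was tested there only through its IZ counts, so these calls are not separate support. The number of features called fell to 5239 with a minimum mean of 50 counts, where 6734 were tested. On total counts alone it was 10710, with 9176 higher and 1534 lower. Of the ratios, Acta1 to Actc1 changed sign: it was -0.30 between medians and ran from -0.13 to 0.14 when each library was left out, with a negative sign without sham replicate 2, 4 or 7 or IZ replicate 1 or 8. The other 9 ratios kept direction and call in every setting. Of the relations, r of Tnni1 to Tnni3 was -0.61 without the 2 farthest libraries and -0.44 without IZ replicate 1, and r of Tpm2 to Tpm1 was -0.70 without the 2 farthest, none of these past the threshold (7 or 8 libraries remained). By rank, Tnni1 to Tnni3 passed without the 2 farthest, though not with all 9 libraries (exact permutation, rho = -0.93, adjusted p = 0.0169), and Tnnt3 to Tnnt2 and Tpm2 to Tpm1 were lost without IZ replicate 1 (exact permutation, adjusted p = 0.0764 and 0.0698). Sham and IZ libraries share only a number: the deviations of same-numbered libraries correlated by -0.216 to 0.128, and 1 of 8 correlated best with its own number. With the replicate number as a block, on 8 pairs, 7884 features were called, the pairing gave an adjusted p of 0.00868 for 9 ratios (exact sign flips) and 0.664 for Acta1 to Actc1, and no call changed among the 8 of the 10 genes it tested or the 10 ratios. Depth limits Tnni1 and Tnnt3, with 25 and 7 counts in all of sham.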
